A study of Mus musculus with 17 samples.

Results

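The genes of the Fc gamma receptors and of their shared signalling chain (Fcgr1, Fcgr2b, Fcgr3, Fcgr4 and Fcer1g) were 5 of the 21887 protein-coding genes of the mouse reference. Peaks of 16 transcription factor ChIP-seq lists were assigned to them by 1 rule, a summit within 20 kb of the span of the gene. The rule gave 141 of the 144384 peaks in all lists, each counted once where neighbouring genes shared it. Overlapping peaks from different lists were merged into 41 sites, of which 6 lay within 20 kb of both Fcgr3 and Fcgr4. A site could hold more than 1 peak of the same list, and each such peak was counted. On GRCm38, Fcgr2b spans chr1:170960558-170976071 (minus strand), Fcgr4 chr1:171018926-171029761 (plus), Fcgr3 chr1:171051169-171065915 (minus, with the start used here inside the span), Fcer1g chr1:171229572-171234349 (minus) and Fcgr1 chr3:96282909-96293969 (minus).

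Fc gamma receptors bind the constant part of IgG, so that a macrophage can take up opsonised particles and respond to immune complexes. The inhibitory receptor encoded by Fcgr2b carries an inhibitory motif (ITIM) in its own tail and recruits the lipid phosphatase SHIP, the product of Inpp5d. The activating receptors encoded by Fcgr1 (high affinity), Fcgr3 (low affinity) and Fcgr4 (intermediate affinity) signal through the common gamma chain, the product of Fcer1g, whose activating motif (ITAM) is phosphorylated by Src family kinases and then binds the kinase SYK. Interferon gamma is a known inducer of the high-affinity receptor in macrophages.

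The cells were bone marrow-derived macrophages (BMDM), grown from C57BL/6 mice in medium conditioned by L929 cells and used on day 7 of differentiation. STAT6, which the interleukin 4 receptor activates, was mapped after 2 h of IFNg+IL4 and after 2 h of IL4 alone (IL4 at 10 ng/ml, IFNg at 100 ng/ml). IRF1, an interferon-induced factor, JunB (JUNB), a subunit of AP-1, and C/EBP-beta (CEBPB), a myeloid leucine zipper factor, were each mapped after 4 h of IFNg+IL4, after 4 h of IFNg and in untreated cells. MYC, a growth regulator that binds E-boxes, was mapped after 2 h and 4 h of IFNg+IL4, after 2 h and 4 h of IL4 and in untreated cells. The labels name no genotype other than wild type, and do not say how many mice gave the marrow. Each group was 1 library, so no comparison has a replicate and no p-value was computed. Every value below describes these libraries.

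The start regions are shown first for Fcgr1, Fcgr4 and Fcgr3, because factor peaks covered them and they held letters of known motifs. Each runs from 250 bases before the start of the gene to 50 bases after it, on the strand of the gene, and was taken from RefSeq (GRCm38.p6). The Fcgr1 region is chr3:96293920-96294219 (minus strand), and its capitals mark a palindromic GAS match (TTCNNNGAA) starting 109 bases before the gene and, downstream of it, a PU.1 core (GAGGAA, read on the other strand). The Fcgr4 region is chr1:171018676-171018975 (plus strand), and its capitals mark a C/EBP match (TTNNGNAA) that overlaps an ISRE match (GAAA, any 2 bases and GAAA, the element of interferon-regulated factors) and, further on, a PU.1 core. The Fcgr3 region is chr1:171059354-171059653 (minus strand), and its capitals mark 2 C/EBP matches and then a PU.1 core.
Fcgr1: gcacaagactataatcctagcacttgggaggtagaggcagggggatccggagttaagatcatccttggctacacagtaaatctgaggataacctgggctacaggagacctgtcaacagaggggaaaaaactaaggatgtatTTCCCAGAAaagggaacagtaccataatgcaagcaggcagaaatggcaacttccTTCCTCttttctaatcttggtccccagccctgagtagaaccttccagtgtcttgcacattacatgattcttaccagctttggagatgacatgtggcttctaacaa
Fcgr4: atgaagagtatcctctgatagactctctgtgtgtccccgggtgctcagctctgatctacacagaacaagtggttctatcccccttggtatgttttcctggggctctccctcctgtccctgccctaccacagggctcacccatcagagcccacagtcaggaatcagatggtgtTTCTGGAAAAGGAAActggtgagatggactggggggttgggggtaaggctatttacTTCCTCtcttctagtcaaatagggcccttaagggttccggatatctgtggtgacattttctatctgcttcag
Fcgr3: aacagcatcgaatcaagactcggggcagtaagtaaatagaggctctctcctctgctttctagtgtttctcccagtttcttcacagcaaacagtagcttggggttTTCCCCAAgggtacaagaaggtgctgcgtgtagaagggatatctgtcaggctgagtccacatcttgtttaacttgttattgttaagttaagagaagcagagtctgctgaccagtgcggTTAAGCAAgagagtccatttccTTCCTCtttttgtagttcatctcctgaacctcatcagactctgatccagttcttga
Of 21238 start regions of this length, 7.69% held the GAS letters, 3.34% the ISRE letters, 37.3% the C/EBP letters and 27.4% the PU.1 core on either strand, so the last 2 were common. The regions of Fcgr2b and Fcer1g held none of the 7 motifs searched, which also included AP-1 (TGANTCA, in 6.99% of all start regions), the wider STAT6 palindrome (TTC, any 4 bases and GAA, in 6.34%) and the E-box (CACGTG, in 7.84%). A match is a description of letters and not a binding site.

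List length ran from 244 peaks for untreated IRF1 to 24927 for STAT6 with IL4. The depth of the libraries recovered from the peak values was 0.33 to 1.55 times that of the input library. The 128 peaks of the input list included none near the 5 genes. Peaks lay within 20 kb of 15 of 15 macrophage marker genes in both STAT6 lists, where 46.0% of all protein-coding genes had one with IFNg+IL4 and 49.8% with IL4. Of 25 markers of other cell types, 9 had a peak with IFNg+IL4 (36.0%) and 11 with IL4 (44.0%). Fold enrichment and −log10 p are values of the authors' peak caller, and peaks were ranked by −log10 p within a list. Ranks, fold values or −log10 p values given side by side from different lists describe each list and show no change between them.

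All 5 genes had peaks, but the factors and treatments differed between them, as the count of peaks by gene and list shows. Fcgr2b, the inhibitory receptor gene, had the most STAT6 peaks of the 5. Within 20 kb, Fcgr4 was the gene with no MYC peak, and its CEBPB peaks were in the IFNg list alone. Fcgr1 had peaks in 14 of the 16 lists, against 8 for Fcgr4. STAT6 was present at 27 of the 41 sites, CEBPB at 21, JUNB at 14, IRF1 at 8 and MYC at 8. Over all lists together, no site held all 5 factors, 6 sites held 4 of them and 20 held 1.

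**Figure D1:**
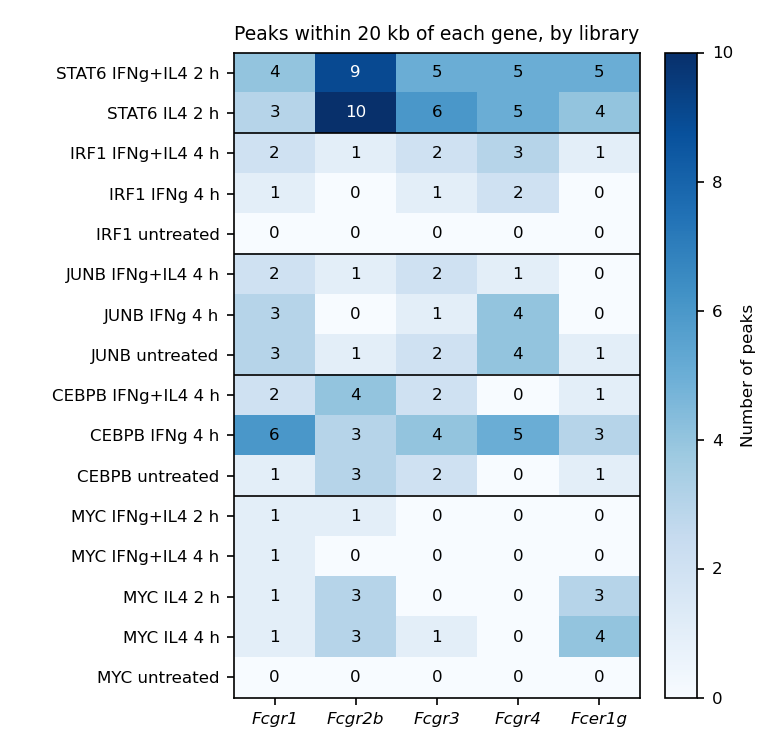
Number of peaks with a summit within 20 kb of each gene (columns) in each of the 16 lists (rows); each cell is 1 library, and a peak shared by Fcgr3 and Fcgr4 is counted in both columns. Fcgr2b holds 9 and 10 STAT6 peaks, and the Fcgr4 column is at 0 in all MYC lists and in both CEBPB lists other than IFNg.

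STAT6 was found at all 5 genes in both of its lists. There were 26 peaks with IFNg+IL4 and 25 with IL4. Some sites at Fcer1g and Fcgr1 held a pair of peaks with IFNg+IL4 and a single peak with IL4. The peaks of a pair are counted separately here and in the shares below, so the higher count does not mean more sites. All 5 genes had a peak in both, where 46.0% of all protein-coding genes had one with IFNg+IL4 and 49.8% with IL4. Of the 25 IL4 peaks, 21 overlapped an IFNg+IL4 peak (84.0%, 95% Clopper-Pearson interval 63.9 to 95.5), beside 68.7% of the whole IL4 list. In the other direction 24 of the 26 IFNg+IL4 peaks overlapped an IL4 peak (92.3%, 74.9 to 99.1), beside 80.3% of the list. Intervals cover counting error only.

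Fcgr2b carried 9 STAT6 peaks with IFNg+IL4 and 10 with IL4. As many peaks lay near 1.43% of genes with IFNg+IL4 and near 1.49% with IL4. Its strongest was inside the gene, 8.32 kb downstream of the start (site chr1:170967352-170968063), at rank 186 of 21481 with IFNg+IL4 and rank 198 of 24927 with IL4. A second lay 10.9 kb upstream of the start (chr1:170986728-170987412), at rank 430 with IFNg+IL4 and rank 257 with IL4. Another lay just beyond the end of the gene (chr1:170959714-170960429), at rank 510 with IFNg+IL4 and rank 532 with IL4. These strong sites were in both lists, as were 100.0% of the IL4 peaks at least as strong as each of them. The peak that the IFNg+IL4 list lacked (chr1:170977153-170977312) was among the weakest of the IL4 list, at rank 24058.

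At the activating receptor genes the strongest STAT6 site lay between Fcgr4 and Fcgr3 (chr1:171046577-171047366), 12.5 kb downstream of the Fcgr3 start. It ranked 260 of 21481 with IFNg+IL4 and 291 of 24927 with IL4. Fcgr1 had its strongest STAT6 peak at the start, with a −log10 p of 69.0 (rank 3127) with IFNg+IL4 and 128.0 (rank 2150) with IL4. At the Fcgr4 start the STAT6 peak stood at rank 5290 of 21481 (−log10 p 38.3, fold 11.8) with IFNg+IL4, and at rank 19842 of 24927 (−log10 p 10.0, fold 5.07) with IL4. Recovered depths were 1.08 with IFNg+IL4 and 1.13 with IL4, and the part of depth was not tested. The 2 STAT6 peaks listed with IFNg+IL4 and not with IL4 were also near Fcgr4, one at the site centred 2.04 kb upstream of its start (chr1:171016828-171017026, rank 13466) and one within reach of Fcgr3 too (chr1:171037904-171038089, rank 18573). Of the IFNg+IL4 peaks at least as strong as these, 90.0% and 83.9% were in the IL4 list. Fcer1g had 5 peaks with IFNg+IL4 and 4 with IL4, the strongest inside the gene at rank 11124 with IFNg+IL4 and rank 6354 with IL4. With IFNg+IL4 its start site and the site 13.0 kb upstream each held a pair of peaks, where IL4 had a single one. Every Fcer1g site with IFNg+IL4 was also listed with IL4, and a weak site inside Apoa2 was listed with IL4 alone (rank 24325).

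IRF1 peaks at these genes were listed only in the 2 lists with IFNg. There were 8 with IFNg+IL4, 3 with IFNg and 0 in untreated cells. With IFNg+IL4 all 5 genes had a peak (29.7% of all genes). With IFNg the activating receptor genes Fcgr1, Fcgr3 and Fcgr4 had one (18.0% of all genes), and in untreated cells none did (2.47% of all genes). The Fcgr3 peak with IFNg lay between Fcgr4 and Fcgr3 and was also counted for Fcgr4. The Fcer1g peak with IFNg+IL4 lay inside the neighbouring gene Apoa2, 11.6 kb downstream of the Fcer1g start (rank 6497 of 8226). None of the 3 IFNg peaks was in the untreated list, which held 5.54% of all IFNg peaks and 244 peaks in total.

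The 3 IRF1 sites with IFNg, placed by the median summit over all lists, lay 6.94 kb upstream of the Fcgr1 start, 12.4 kb upstream of the Fcgr4 start and between Fcgr4 and Fcgr3, 19.5 kb downstream of the Fcgr4 start. All 3 were kept with IFNg+IL4, as were 95.2% of the whole IFNg list. When the overlap had to cover at least 50% of both peaks, 1 of the 3 was (33.3%), beside 67.8% of the list. They ranked 2037, 2595 and 1828 of 8226 with IFNg+IL4, and 1726, 2079 and 1995 of 4189 with IFNg. The IFNg+IL4 list had 5 more, so that 3 of its 8 were shared with IFNg (37.5%, interval 8.52 to 75.5), beside 47.6% of the whole list. The strongest of the 5 was at the site 2.04 kb upstream of the Fcgr4 start (chr1:171016786-171017173, rank 2956), at a site where STAT6 was also listed with IFNg+IL4 and not with IL4. Another was on the main Fcgr2b STAT6 site inside the gene (rank 5950). The recovered depth was 0.929 with IFNg+IL4 and 0.446 with IFNg, and the part of depth in the additional peaks was not tested. Within 5 kb of the genes, 0 of 3 peaks with IFNg+IL4 were also listed with IFNg.

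**Figure D2:**
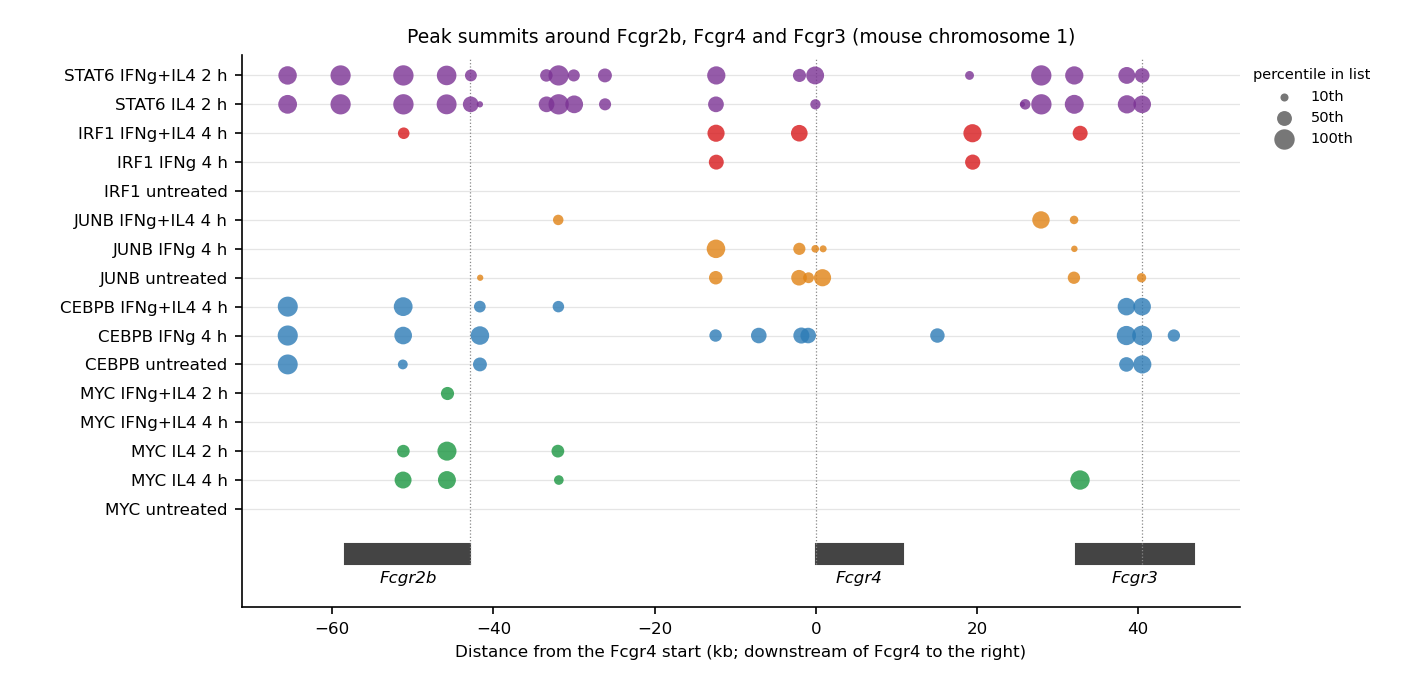
Peak summits within 20 kb of Fcgr2b, Fcgr4 or Fcgr3 by distance from the Fcgr4 start (x axis, kb) in each list (rows); dot size gives the percentile of the peak by −log10 p within its own list, bars are gene spans and dotted lines gene starts. With IFNg+IL4 there are 3 JUNB dots, 2 of them on strong STAT6 sites and in neither other JUNB list.

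JUNB was listed at partly different sites of this family in its 3 lists. Near Fcgr4 it had 4 peaks with IFNg, all of them absent with IFNg+IL4, where a single JUNB peak was listed at a different site. Near Fcgr2b it had 1 peak with IFNg+IL4 and 0 with IFNg. Near Fcgr1 it had 2 with IFNg+IL4, 3 with IFNg and 3 in untreated cells. In all, 5 peaks were listed with IFNg+IL4, 8 with IFNg and 11 in untreated cells. Peaks were near 4 genes with IFNg+IL4 (16.8% of all genes), near 3 with IFNg (20.7%) and near all 5 in untreated cells (25.2%). Without the untreated peaks under a −log10 q of 2, which no other list went below, the untreated count was 2 genes, Fcgr1 and Fcgr4 (16.8% of all genes).

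With IFNg+IL4, 3 of the 8 IFNg peaks were kept (37.5%, interval 8.52 to 75.5), beside 62.0% of the whole IFNg list. In the other direction 3 of the 5 peaks with IFNg+IL4 were also listed with IFNg (60.0%, 14.7 to 94.7), beside 82.9% of the list. Both intervals include the share of the whole list. With the IFNg list shortened to its strongest peaks, as many as with IFNg+IL4, 1 of the 5 was also listed with IFNg (20.0%), beside 72.9% of the list. The strongest IFNg peak near Fcgr4, at the site 12.4 kb upstream of the start (chr1:171006412-171006668, rank 1372 of 7428, fold 10.1), was not in the IFNg+IL4 list, although 98.3% of the 1377 IFNg peaks at least as strong were. It was listed in untreated cells, at rank 5528 of 9229, with a −log10 q of 1.84. CEBPB was likewise listed at this site with IFNg (rank 14419 of 21499) and not with IFNg+IL4. IRF1, by contrast, was listed there with both IFNg+IL4 and IFNg, and STAT6 with both IFNg+IL4 and IL4. The other 3 Fcgr4 peaks were weaker, at ranks 5104, 6821 and 6990, and of the peaks at least as strong 75.5%, 65.1% and 64.0% were kept.

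The 2 JUNB peaks listed with IFNg+IL4 and in neither other JUNB list both lay on the strong STAT6 sites described above. One was on the site between Fcgr4 and Fcgr3 (chr1:171046732-171047001, rank 1622 of 5556), and of the 1628 peaks at least as strong in the same list 96.8% were also listed with IFNg. The other was on the site 10.9 kb upstream of Fcgr2b (chr1:170986926-170987078, rank 4369), and 87.7% of the peaks at least as strong were also listed with IFNg. At that site CEBPB was also listed with IFNg+IL4 and in no other CEBPB list. All 5 JUNB peaks with IFNg+IL4 overlapped a STAT6 peak (interval 47.8 to 100.0%), beside 71.5% of the whole list. With IFNg 6 of 8 did (75.0%), beside 62.7%, and in untreated cells 8 of 11 (72.7%), beside 62.3%. The recovered depth was 1.22 with IFNg+IL4 and 1.01 with IFNg.

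Between IFNg and untreated cells, 6 of the 11 untreated JUNB peaks were kept (54.5%, interval 23.4 to 83.3), beside 46.9% of the list, and 6 of the 8 IFNg peaks were in the untreated list (75.0%), beside 58.7%. The untreated list held peaks down to a −log10 q of 0.0, where the lowest in the other lists was 2.01. When it was held to a −log10 q of at least 2, 4 peaks remained near these genes and all 4 were kept, beside 63.6% of the list. The weak untreated peaks that were then left out included those at the starts of Fcgr1, Fcgr3 and Fcer1g and the peak 1.18 kb upstream of Fcgr2b.

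CEBPB was listed at more sites with IFNg than in either other list. There were 9 peaks with IFNg+IL4, 20 with IFNg and 7 in untreated cells. They were near 4 genes with IFNg+IL4 (22.4% of all genes), near all 5 with IFNg (48.2%) and near 4 in untreated cells (20.7%). Fcgr4 was the gene without a peak within 20 kb both with IFNg+IL4 and in untreated cells, and had 5 with IFNg. An untreated CEBPB peak lay just outside this window, 20.5 kb from Fcgr4 (rank 4501 of 5540). Fcgr1 had 2 with IFNg+IL4, 6 with IFNg and 1 in untreated cells. The untreated one lay 30.5 kb downstream of the Fcgr1 start, beyond the end of the gene and just inside the window. At Fcgr2b there were 4 with IFNg+IL4, 3 with IFNg and 3 in untreated cells, and the 3 untreated peaks were kept in both other lists.

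All 7 untreated CEBPB peaks were kept with IFNg, as were 99.9% of the whole untreated list, and 7 of the 20 IFNg peaks were in the untreated list (35.0%, interval 15.4 to 59.2), beside 25.6%. With IFNg+IL4, 8 of the 20 IFNg peaks were kept (40.0%, 19.1 to 63.9), beside 28.2% of the whole list, and 8 of the 9 peaks with IFNg+IL4 were also listed with IFNg (88.9%), beside 97.5%. Recovered depths were 1.31 with IFNg+IL4, 1.33 with IFNg and 1.45 in untreated cells, while the lists held 6278 peaks with IFNg+IL4, 21499 with IFNg and 5540 in untreated cells. When the IFNg list was shortened to its strongest peaks, as many as the list it was set against, 7 of 8 were kept with IFNg+IL4 (87.5%, beside 77.7% of all such peaks) and 5 of 6 were in the untreated list (83.3%, beside 78.3%).

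The 5 Fcgr4 peaks with IFNg ranked 8728 to 14419 of 21499, all beyond the length of the IFNg+IL4 list, and 7.78% of all IFNg peaks beyond that rank were kept. The strongest IFNg peak that the IFNg+IL4 list lacked was at the site centred 6.94 kb upstream of Fcgr1 (chr3:96300556-96301071, rank 4690), where 88.9% of IFNg peaks at least as strong were kept. IRF1 and JUNB were listed at that site with both IFNg+IL4 and IFNg. The strongest CEBPB peak of the family was 22.7 kb downstream of the Fcgr2b start, beyond the end of the gene, at rank 256 of 6278 with IFNg+IL4, 647 of 21499 with IFNg and 272 of 5540 in untreated cells. At the Fcgr3 start CEBPB ranked 1696 of 6278 with IFNg+IL4, 1333 of 21499 with IFNg and 1220 of 5540 in untreated cells.

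MYC peaks at these genes were listed only in lists with IL4. There were 2 with IFNg+IL4 for 2 h and 1 for 4 h, 7 with IL4 for 2 h and 9 for 4 h, and 0 in untreated cells. Genes with a peak numbered 2 and 1 with IFNg+IL4 at 2 h and 4 h (20.9% and 22.6% of all genes), 3 and 4 with IL4 at 2 h and 4 h (51.1% and 44.8%), and 0 in untreated cells (4.72%). The untreated list, of 495 peaks, held 3.57% of all IL4 2 h peaks and 4.88% of all IL4 4 h peaks, while 100.0% and 99.8% of its own peaks were listed with IL4 at 2 h and 4 h.

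Fcgr2b had 3 MYC sites with IL4 at both times, all on STAT6 sites. The strongest was inside the gene, 2.94 kb downstream of the start (rank 1819 of 13211 at 2 h and 2340 of 9645 at 4 h), and it was kept with IFNg+IL4 at 2 h and not at 4 h. Fcgr1 had a MYC peak at its start with IFNg+IL4 at 2 h and 4 h and with IL4 at 2 h and 4 h, the one MYC site of the family in all 4 lists. At Fcer1g, which encodes the chain that the activating receptors share, MYC was listed at the start (rank 5686 of 13211 with IL4 at 2 h and 2358 of 9645 at 4 h) and not with IFNg+IL4. A weaker MYC peak inside Fcer1g, 4.51 kb downstream of its start, was listed with IL4 at 4 h (rank 8117). Fcgr3 had a MYC peak inside the gene at 4 h of IL4 alone (chr1:171051604-171051839, rank 1014 of 9645). Of the 1018 IL4 4 h peaks at least as strong, 99.0% were also listed at 2 h of IL4 and 95.1% with IFNg+IL4 at 4 h. The nearest MYC peak to Fcgr4 was 20.5 kb away, just outside the window, in the lists of IFNg+IL4 at 4 h and of IL4 at 2 h and 4 h.

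Between times of IL4, all 7 MYC peaks at 2 h were kept at 4 h (interval 59.0 to 100.0%), beside 63.1% of the whole 2 h list, and 7 of the 9 peaks at 4 h were in the 2 h list (77.8%), beside 87.8%. With IFNg+IL4, 2 of the 7 IL4 peaks were kept at 2 h (28.6%, 3.67 to 71.0), beside 20.8% of the list, and 1 of the 9 at 4 h (11.1%, 0.281 to 48.2), beside 30.8%. In the other direction 2 of 2 peaks at 2 h were shared with IL4, beside 97.3% of that list, and 1 of 1 at 4 h, beside 93.9%. The recovered depth was 0.33 with IFNg+IL4 and 0.573 with IL4 at 2 h, and 0.369 with IFNg+IL4 and 0.875 with IL4 at 4 h, so the libraries with both cytokines were the shallower ones and their depth cannot be told apart from the treatment. Among the strongest IL4 peaks, as many as the IFNg+IL4 list held, 1 of 1 was kept at 2 h, beside 65.2% of all such peaks, and 0 of 4 at 4 h, beside 65.0%. All 7 MYC peaks with IL4 at 2 h overlapped a STAT6 peak, beside 46.3% of the whole list, and 7 of 9 at 4 h did, beside 47.3%.

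**Figure D3:**
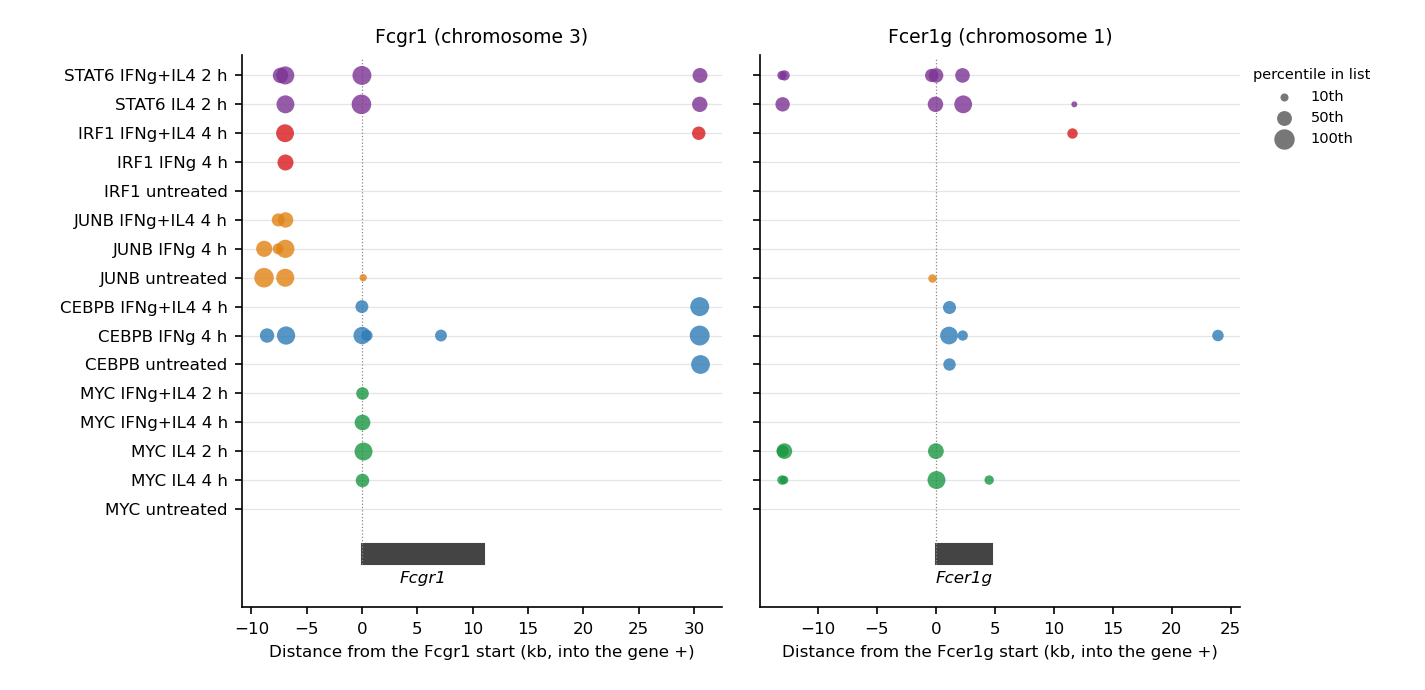
Peak summits within 20 kb of Fcgr1 (left) and Fcer1g (right) by distance from the gene start (x axis, kb) in each list (rows); dot size gives the percentile by −log10 p within the list and bars are gene spans. At Fcgr1 peaks of STAT6, IRF1, JUNB and CEBPB overlap at the site 6.94 kb upstream, and MYC lies at the start; at Fcer1g MYC lies at the start with IL4 alone.

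The start regions of the 5 genes differed in what covered them. The Fcgr1 region was overlapped by peaks of 9 lists, Fcgr3 by 6, Fcer1g by 5, Fcgr4 by 3 and Fcgr2b by 2. For Fcgr1, Fcgr3 and Fcer1g these include an untreated JUNB peak with a −log10 q under 2. At Fcgr3, with its 2 C/EBP matches, CEBPB was listed in all 3 of its lists, with summits 21 bases (IFNg+IL4), 20 bases (IFNg) and 44 bases (untreated) before the start; the nearer match begins 28 bases before it. CEBPB peaks overlapped 1.87% of all start regions with IFNg+IL4, 5.92% with IFNg and 1.54% in untreated cells. At Fcgr4, whose C/EBP match is joined to an ISRE match, neither CEBPB nor IRF1 was listed over the start region, while STAT6 was in both lists (10.7% of all start regions with IFNg+IL4, 13.1% with IL4) and JUNB with IFNg (0.848%). At Fcgr1, with the GAS match, STAT6 was listed in both lists, CEBPB with IFNg+IL4 and with IFNg, and JUNB in untreated cells (1.74% of all start regions). MYC covered it in all 4 lists with IL4, which overlapped 7.44% and 7.91% of all start regions with IFNg+IL4 at 2 h and 4 h, and 26.9% and 22.0% with IL4 at 2 h and 4 h. STAT6 was also listed over the starts of Fcer1g and Fcgr2b in both lists.

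Of the 41 sites, 14 were in 5 or more lists, and 12 were in 1 list. The Fcgr1 start was in 9 lists, the Fcgr2b site inside the gene and the Fcgr1 site 6.94 kb upstream in 8 each, and the Fcgr4 site 12.4 kb upstream in 7. Without the untreated JUNB peaks under a −log10 q of 2, 11 sites were in 5 or more lists and none of them was near Fcer1g. The Fcgr1 start was then in 8 lists, as many as the other two sites of 8, and the Fcgr4 site in 6. This Fcgr4 site and the one 2.04 kb upstream of Fcgr4 held IRF1, JUNB, CEBPB and STAT6 over all lists together, and no MYC. At both sites JUNB was listed in untreated cells and with IFNg, and CEBPB with IFNg. Neither was listed there with IFNg+IL4. At the site 2.04 kb upstream, IRF1 and STAT6 were listed with IFNg+IL4 alone. Over all treatments together, STAT6 shared 12 of its 27 sites with CEBPB, 11 with JUNB, 6 with MYC and 5 with IRF1. The outermost Fcgr1 site, 19.5 kb beyond the end of the gene and overlapping the histone gene H4c14, was just inside the window and held CEBPB in all 3 lists. It supplied the untreated CEBPB peak counted for Fcgr1, and also held STAT6 in both lists and IRF1 with IFNg+IL4.

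**Figure D4:**
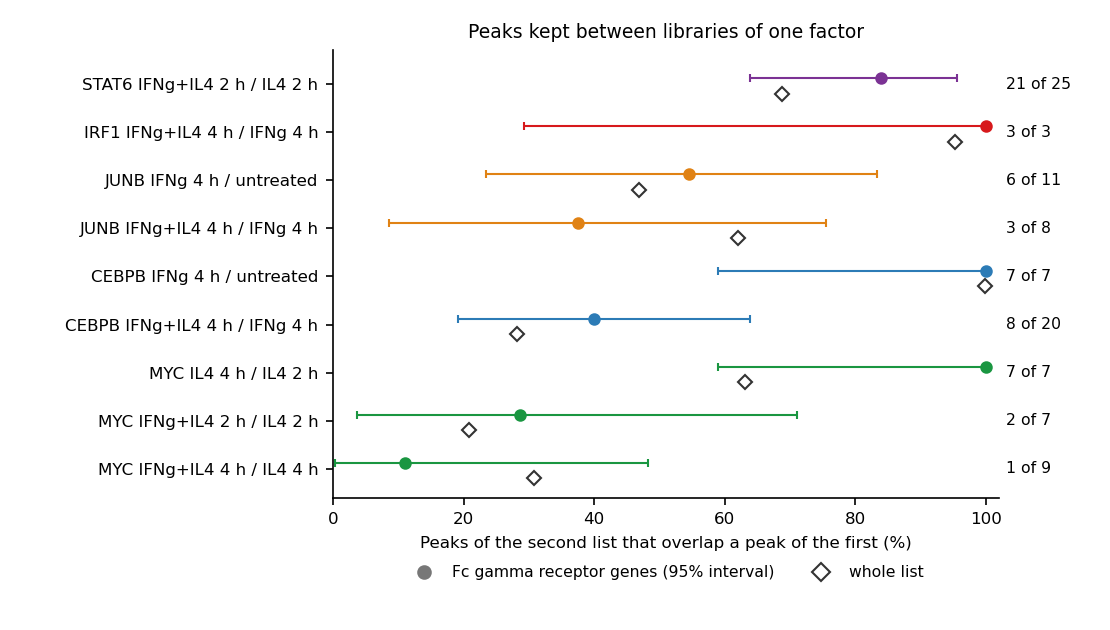
For each pair of libraries of 1 factor, the percentage of peaks of the second list that overlap a peak of the first (x axis), for peaks near the 5 genes (filled circles, 95% Clopper-Pearson intervals, counts at right) and for the whole list (open diamonds). Pairs whose second list had no peak near the genes are left out; all 9 intervals drawn include the value of the whole list.

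Genes that act downstream of the receptors were described through a list of 30. All 30 had a peak in at least 1 list. STAT6 was near 27 with IFNg+IL4 (90.0%, beside 46.0% of all genes) and 30 with IL4 (100.0%, beside 49.8%). IRF1 was near 21 with IFNg+IL4 (70.0%, beside 29.7%), 14 with IFNg (46.7%, beside 18.0%) and 0 in untreated cells (beside 2.47%). JUNB was near 19 with IFNg+IL4 (63.3%, beside 16.8%), 22 with IFNg (73.3%, beside 20.7%) and 22 in untreated cells (73.3%, beside 25.2%). CEBPB was near 24 with IFNg+IL4 (beside 22.4%), all 30 with IFNg (beside 48.2%) and 21 in untreated cells (70.0%, beside 20.7%). With IFNg+IL4, MYC was near 8 at 2 h (26.7%, beside 20.9%) and 10 at 4 h (33.3%, beside 22.6%), the shares closest to those of all genes among the lists with a peak. With IL4 it was near 26 at 2 h (86.7%, beside 51.1%) and 24 at 4 h (beside 44.8%), and in untreated cells near 0 (beside 4.72%). The median gene of the list had 4.5 STAT6 peaks with IFNg+IL4 and 5.5 with IL4, where the median over all genes was 0 in both. The 15 macrophage marker genes had a share at least as high as that of the 30 in each of the 16 lists. For IRF1 it was 86.7% with IFNg+IL4 and 53.3% with IFNg, and for untreated JUNB it was 86.7%. For CEBPB with IFNg+IL4 and for MYC with IL4 at 2 h it was 93.3%. Shares above those of all genes were therefore not particular to the signalling list.

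Among the 30, the strongest STAT6 peaks were near Pik3cd, a catalytic subunit of PI3 kinase (rank 59 of 24927 with IL4), Sh2b2, an adaptor (rank 94), and Vav1, an exchange factor for Rac (rank 244). The strongest CEBPB peaks with IFNg were near Gab2, a docking protein (rank 117 of 21499), Lyn, a Src family kinase (rank 133), and Cbl, a ubiquitin ligase (rank 335). JUNB in untreated cells was strongest near Lyn, Prkcd, a protein kinase C, and Inpp5d, which encodes the SHIP phosphatase that Fcgr2b recruits (ranks 365, 530 and 917 of 9229). The untreated list was taken as the longest of JUNB. At a −log10 q of at least 2 it held 5355 peaks, fewer than the 7428 with IFNg. IRF1 with IFNg+IL4 was strongest near Crkl, an adaptor (rank 602 of 8226), Gab2 (rank 1902) and Pik3cd (rank 2037). MYC with IL4 at 2 h was strongest near Lat2, an adaptor (rank 941 of 13211), Btk, a tyrosine kinase (rank 1405), and Cyba, a subunit of the phagocyte oxidase (rank 1851). Of 14 other immunoglobulin receptor genes, 9 had a STAT6 peak with IFNg+IL4 and 9 with IL4 (64.3% each), beside 46.0% of all genes with IFNg+IL4 and 49.8% with IL4. Fcer1a, Fcamr, Fcmr and Pigr, receptors of IgE, IgM or polymeric immunoglobulin, had no peak in any list.

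The pattern of a gene over the 16 lists was taken as the percentile of its strongest peak in each, with 0 where it had none. Within the family the patterns of Fcgr2b and Fcer1g were most alike (Pearson r 0.87 over 16 lists) and those of Fcgr2b and Fcgr4 least alike (r 0.04), although Fcgr2b and Fcgr4 are neighbours in the chromosome 1 cluster. Fcgr3 and Fcgr4, which share peaks, had an r of 0.48. The genes most like Fcgr2b elsewhere were Sh2b2, Clint1 and Atp6v1b2 (r 0.97 each). For Fcgr4 they were Mybpc1 and Vwa5a (0.98) and Ptpro (0.97), for Fcgr1 Abhd12 and Auh (0.93) and Acod1 (0.92), for Fcgr3 Flt1, Dennd1a and Akap13 (0.87), and for Fcer1g Atp13a2 (0.96), Jag2 and Sde2 (0.95). The Fcgr4 pattern held 0 for MYC with IFNg+IL4 at 4 h, MYC with IL4 at 2 h and 4 h, and untreated CEBPB. In each of these lists a peak lay 20.5 kb from Fcgr4, just outside the window. The r values of Fcgr4, 0.04 among them, therefore rest on the 20 kb window, and another window was not tested for them. The 16 points share libraries, factors and list lengths, so these r values are descriptions.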

How the data were processed

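ChIP-seq peaks of 5 factors were compared in 16 ChIP libraries, with 1 input library, from macrophages grown from mouse bone marrow. The submitters' processing notes name Bowtie2 (version 2.2.6), MACS2 (version 2.1.0.20150731) and the build mm10/GRCm38. Their settings, the read counts and the handling of multiply mapping reads were not given in the sources used here. Each list came from 1 library. The deposited fold enrichment is a ratio to the control, and the deposited −log10 p and −log10 q come from the authors' peak caller, 1 value a peak.

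Peaks on the autosomes, X and Y that overlapped no input peak were used. Members had a summit within 20 kb of the RefSeq gene span (GRCm38.p6, which gave spans only, so exon or intron is not stated). A peak was kept when it overlapped the other list by at least 1 bp. Shares have exact Clopper-Pearson 95% intervals (scipy 1.17.1) beside the share of the whole list. Depth relative to the input was recovered from the steps of the −log10 p and fold values of up to 2000 peaks per list. For the 7 libraries shallower than the input, between 0.43 and 0.504 of the values lay on these steps, so their depths are less certain. The overlap step was checked on real peaks moved by known amounts. The depth step was checked on values simulated from the same model that it fits, which does not show its accuracy on these lists.

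All 5 genes were named in every list, with the 3 genes of highest Pearson r, and per factor the 3 genes of the signalling list with the strongest peak in its longest list. The genes and lists were chosen with earlier results of these data known. Alternatives were another window, overlap, peak threshold, list length and no input filter.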

Additional observations from a re-analysis of the deposited data

How the results depend on the processing

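Shares of peaks kept near the 5 genes were recomputed under 8 alternatives. Of 144 alternative values for 21 shares, 134 stayed within the 95% interval of the reported share. With so few peaks this does not show that a share is stable. The IRF1 IFNg peaks kept with IFNg+IL4 went from 3 of 3 to 1 of 3 with 50% reciprocal overlap and stayed within the interval. With the longer list shortened to the length of the shorter, 85.7% of untreated JUNB peaks were in the IFNg list (6 of 7, beside 54.1% of the whole list), 87.5% of CEBPB IFNg peaks were in the IFNg+IL4 list (beside 77.7%) and 83.3% in the untreated list (beside 78.3%), 100.0% of MYC IL4 peaks were kept with IFNg+IL4 at 2 h (1 of 1, beside 65.2%), and 0.0% of MYC peaks were shared at 4 h in either direction (0 of 4 beside 65.0%, 0 of 1 beside 71.4%). Limiting untreated JUNB to a −log10 q of at least 2 gave 100.0% (4 of 4, beside 63.6%) and, as a count added after seeing the data, 2 genes in place of 5 with an untreated peak. A −log10 q of at least 5 in both lists gave 33.3% of JUNB IFNg peaks in the untreated list (2 of 6, beside 34.5%). Within 5 kb, 0.0% of IRF1 IFNg+IL4 peaks (0 of 3) and 100.0% of CEBPB IFNg+IL4 peaks (6 of 6) were in the IFNg lists. Each of these alternatives leaves fewer peaks near the genes, except for MYC with IFNg+IL4 at 4 h, where the same 1 peak was set against a shortened IL4 list. No paired analysis was possible because each group was 1 library and the labels give no replicate numbers. With 0 to 26 peaks a list near these genes, most intervals are wide. The libraries shallower than the input, all of MYC and those of IRF1 with IFNg, may lack peaks that a deeper library would list, and absence from a list is not absence of binding.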
